A study of Homo sapiens with 17 samples.

Results

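This comparison sets toyocamycin against its vehicle DMSO at the last time point of a treatment course. Its members were the 3 toyocamycin and the 3 DMSO libraries whose labels name that time point, 6 of the 17 libraries of the series. The labels put this time at 72 h and the methods of the study at 96 h, so it is called the last time point here. Libraries of earlier times, of which 2 per arm at 2 h and 1 per arm at 24 and 48 h are used below, put the last time point in the order of the course. All libraries came from YB5 cells, a clone of the human colon cancer line SW48 that holds a single insertion of a GFP gene behind a methylated and silent cytomegalovirus promoter, so every sample rests on 1 clone of 1 tumor line. Treated cells received 250 nM toyocamycin, control cells received DMSO, and all 6 libraries belong to the first sequencing batch named in the labels. Polyadenylated RNA was sequenced from both ends in reads of 150 bases. The labels call the replicates biological without saying how the cultures were kept apart. A p-value here thus measures the spread between these samples and between the 2 h libraries fitted with them. Replicate 2 of each 2 h arm belongs to batch 2, and the main fit had no batch term, so this spread can include a difference of batch.

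Toyocamycin is an analog of adenosine that cells can phosphorylate, and it is known as a blocker of ribosomal RNA maturation and of the splicing of XBP1 messenger RNA by the endoplasmic reticulum sensor IRE1. The study examined it as an inhibitor of CDK9. CDK9 and a T-type cyclin form P-TEFb, the kinase that releases RNA polymerase II from its pause downstream of a promoter, and the 7SK particle with HEXIM1 holds a share of P-TEFb inactive. Messenger RNAs with a short life, such as those of immediate early genes and of MCL1, are the first to fall when this release is blocked. The comparison at the last time point addresses the state of gene expression after days of exposure.

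Genes were tested with edgeR's quasi-likelihood test and were called where the p adjusted by Benjamini and Hochberg fell under 0.1. A fold change is the difference between toyocamycin and DMSO on the log2 scale, given ± its standard error, and a level is a read count relative to the size of the library (CPM) after TMM scaling, listed in the order of replicates 1 to 3. Of 14491 genes tested, 47.0% were called higher and 41.9% lower on toyocamycin. With a minimum fold change of 2 in the test itself, 36.7% were called higher and 29.9% lower. The median of the absolute log2 fold change over all tested genes was 1.93, and for 87.5% of the genes the 3 toyocamycin libraries lay wholly outside the range of the 3 DMSO libraries. With calls this frequent, a call alone says little of a gene, and each list below was read by its direction and its median against those of all genes.

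Both arms differed as libraries too. The DMSO libraries held 18201459 to 20756242 counted reads and the toyocamycin libraries 13483232 to 15246705, with 13591 to 13790 and 16273 to 16549 genes detected. The 100 genes with the most reads took 20.9 to 22.2% of the counts on DMSO and 35.3 to 37.4% on toyocamycin. Scaling decides where the line of no change lies. The median log2 fold change of all tested genes was 0.18 with TMM, 0.50 with the size factors of DESeq2, -0.42 with library size alone and -0.89 with a scale set by mitochondrial genes. The number called higher and lower was 6804 and 6065 with TMM, 5657 and 7297 with library size alone, and 4204 and 7362 with the mitochondrial scale, so the balance of directions depends on this choice. Levels are therefore relative to the other genes of a library, and a lower level in every cell cannot be told apart from fewer cells of a kind. The part of depth and of library makeup in the results was not tested.

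Low counts bear on the direction. A gene with few counts on DMSO entered the test only if it was high in some other arm, and 1916 tested genes had at most 3 counts in every DMSO library. The counts of lists are for this reason also given for the 11524 genes that had at least 10 counts in both DMSO libraries of 2 h, whose values do not enter the difference. Among these, 35.9% were called higher, 52.1% were called lower, and the median log2 fold change was -0.48. They are called genes with an early signal below. Reads that overlap several genes were not counted, which makes the count of a gene that shares exons uncertain. Of the genes given below with a value, CDK9, MEPCE, POLR2M, MED26, SMG8, EDC4, POLD4, RAD52, ATRIP, MAD1L1, NUSAP1, MDM2, TIGAR, MCL1, BCL2L2, DDIT3, ASNS, HSPA1B, NDUFA11, LDHB, ALDOA, NDRG1, AXIN2, HOXA3 and ZNF596 share at least 5% of their exon length with another annotated gene of the same strand. NR4A1, IER3, HEXIM1, HEXIM2, LARP7, BRD3, EAF1, CCNC, INTS12, SRSF2, RAD54L, PLK1, CDKN2A, CDKN2C, BCL2L1, BCL2L11, HSPA8, NQO1, SLC25A5, ALDOC, BHLHE40, IDI1, MNT and MAX share at least 10% with genes of the other strand, which matters only if strand was ignored in the counting.

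The colon label was checked against 12 epithelial markers. All were tested, with 3 called higher and 9 called lower (median log2 fold change -3.06). Their sum was 7135 to 8016 CPM on DMSO and 422 to 462 CPM on toyocamycin by library size without TMM. With TMM scaling it was 6250 to 7276 CPM on DMSO and 587 to 614 CPM on toyocamycin. KRT19, a keratin of simple epithelia, had 213, 247 and 178 CPM on DMSO and 2.96, 4.50 and 2.72 CPM on toyocamycin (log2 fold change -5.97 ± 0.23, adjusted p = 3.44e-12). EPCAM, an adhesion protein of epithelial cells, had 271, 249.7 and 284 CPM on DMSO and 121, 91.97 and 97.2 CPM on toyocamycin (log2 fold change -1.38 ± 0.14, adjusted p = 1.56e-07). CDX2, the factor that specifies intestinal cells, had 80.2, 69.8 and 55.7 CPM on DMSO and 97.2, 115 and 101 CPM on toyocamycin (log2 fold change 0.61 ± 0.16, adjusted p = 0.00242, but -0.52 and not called with scaling on mitochondrial genes). Neither arm overlapped the other for these 3 genes, of which KRT19 and EPCAM were lower and CDX2 slightly higher on toyocamycin under TMM. Markers of other cell types stayed low in both arms, and their sums are likewise given without TMM scaling. The summed level of 10 fibroblast markers was 0.555 to 1.32 CPM on DMSO and 2.43 to 16.6 CPM on toyocamycin, that of 10 endothelial markers 3.83 to 5.27 and 7.14 to 10.4 CPM, and that of 12 leukocyte markers 2.12 to 2.36 and 23.02 to 26.2 CPM. For 10 neuronal markers it was 2.65 to 3.30 and 17.9 to 22.4 CPM, and for 10 muscle markers 0.434 to 0.989 and 5.19 to 7.34 CPM. All these sums were higher on toyocamycin, and their part in the results was not tested. CD3D, SNAP25, NEFM and MYOD1 had no count in any of the 6 libraries, but other markers became detectable on toyocamycin. Fibroblast markers with at most 3 counts in every library of an arm numbered 8 of 10 on DMSO and 2 on toyocamycin. Endothelial markers of this kind numbered 7 of 10 and 1, and leukocyte markers 8 of 12 and 3. For neuronal markers the numbers were 8 of 10 and 4, and for muscle markers 7 of 10 and 6.

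The abundant messages changed place. IRS1, the adaptor of the insulin receptor, took 0.0549, 0.0569 and 0.0436% of the counts on DMSO and 1.53, 2.58 and 2.30% on toyocamycin, where it ranked first of all genes. CCN1, a secreted matrix protein and an immediate early gene, took 0.0176, 0.0231 and 0.0227% on DMSO and 1.73, 1.75 and 1.72% on toyocamycin. ACTG1, the cytoplasmic gamma actin, took 1.40, 1.57 and 1.46% on DMSO and 0.0707, 0.0780 and 0.0747% on toyocamycin. The most abundant messages of DMSO cells thus included cytoskeletal genes, among them ACTB (log2 fold change -2.06) and KRT8 (-3.97), and those of toyocamycin cells early response genes, among them NR4A1 (7.73), GADD45B (7.64), IER3 (5.03) and DUSP4 (3.87). These genes were chosen by rank of mean share, after their values were seen. The ribosomal protein genes together rose from 7.95 to 8.66% of the counts to 13.9 to 16.6%.

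**Figure D1:**
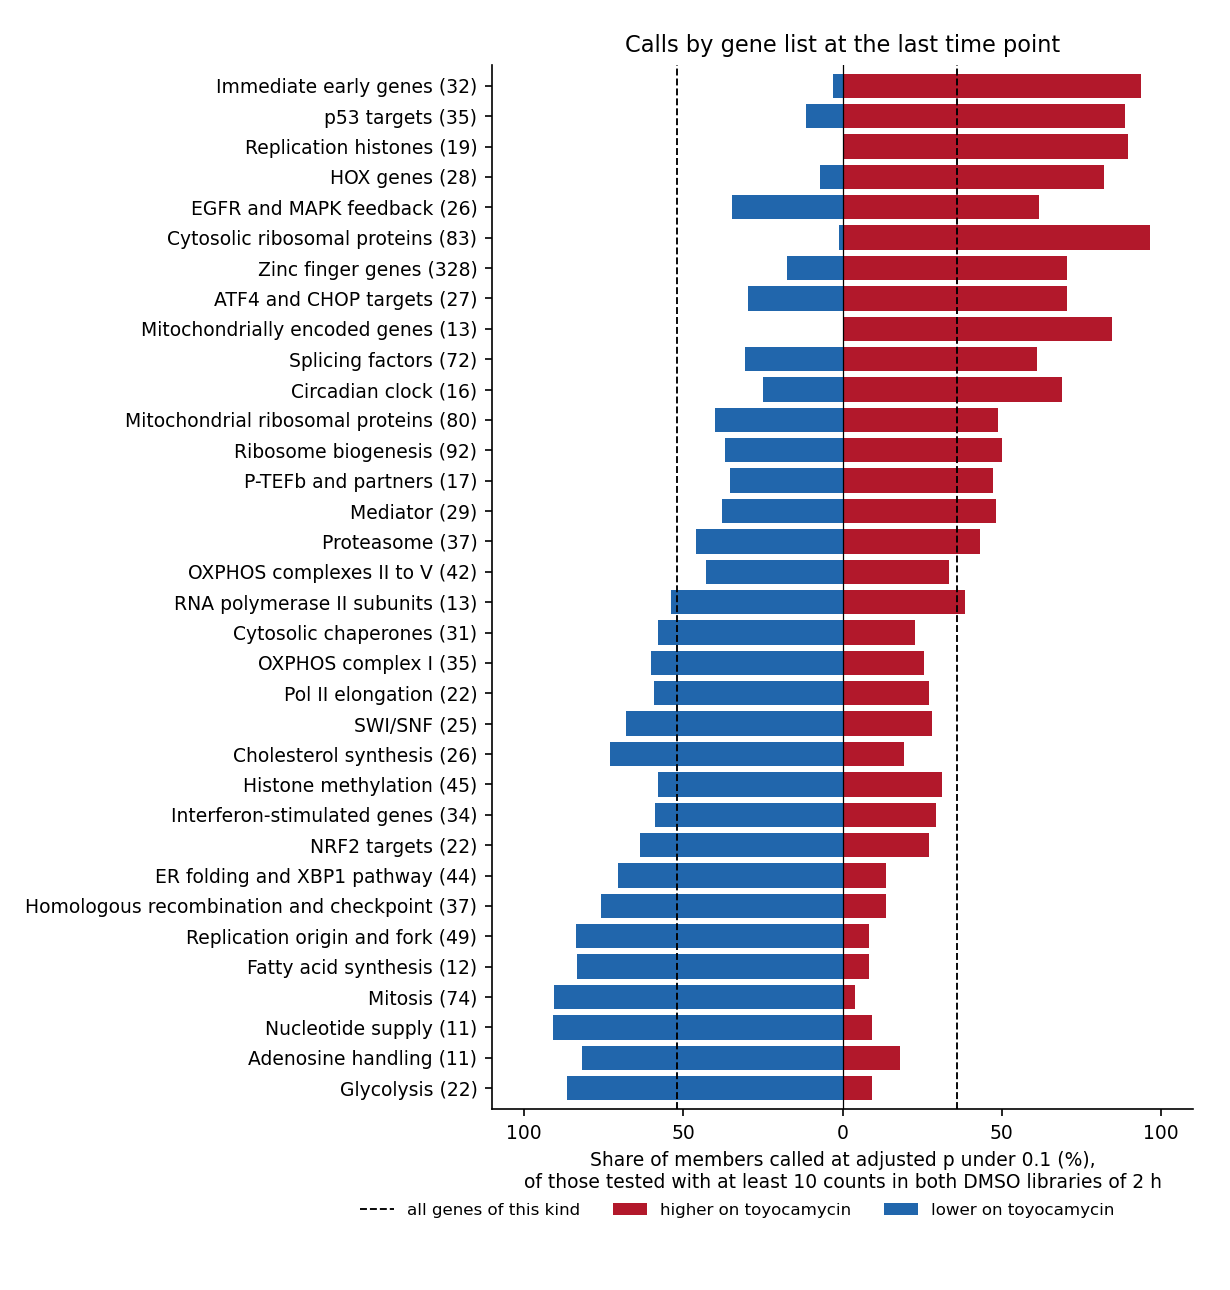
Share of genes called higher (to the right) and lower (to the left) on toyocamycin at the last time point, in percent of the members with at least 10 counts in both DMSO libraries of 2 h, for 34 lists ordered by their median log2 fold change, with the number of such members in parentheses. Dashed lines mark the shares over all genes of this kind, 35.9% higher and 52.1% lower; immediate early genes head the list and glycolysis closes it.

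Genes of P-TEFb and its partners divided. Of 18 tested, 9 were called higher and 6 lower (50 and 33.3%, against 47.0 and 41.9% of all tested genes). Of the 17 with an early signal, 8 were called higher and 6 lower. These are 47.1 and 35.3%, against 35.9 and 52.1% of all such genes, and their median was 0.24 against -0.48. The median log2 fold change of all 18 was 0.42, and it turned to -0.18 with library size alone and -0.64 with the mitochondrial scale. CDK9, the kinase itself, encoded at chr9:127785679-127790792 of GRCh38, had 77.6, 69.02 and 60.5 CPM on DMSO and 25.8, 27.7 and 24.4 CPM on toyocamycin (log2 fold change -1.41 ± 0.15, adjusted p = 3.82e-07), with 5.82% of its exon length shared with microRNA genes. CCNT1, its main cyclin, had 50.8, 48.96 and 59.1 CPM on DMSO and 393, 332 and 337 CPM on toyocamycin (log2 fold change 2.74 ± 0.16, adjusted p = 2.62e-10). CCNT2, the alternative cyclin, had 16.2, 16.7 and 25.03 CPM on DMSO and 274, 219 and 216 CPM on toyocamycin (log2 fold change 3.61 ± 0.21, adjusted p = 2.42e-10). The kinase was lower in all 3 toyocamycin libraries and both cyclins were higher, with no overlap. HEXIM1, the inhibitor in the 7SK particle, had 126, 109 and 96.6 CPM on DMSO and 95.4, 80.997 and 83.4 CPM on toyocamycin (log2 fold change -0.35 ± 0.14, adjusted p = 0.0274), a small difference whose call was lost with DESeq2's size factors and with DESeq2's Wald test. Its relatives in the 7SK particle also split, with HEXIM2 higher (3.07), LARP7 higher (0.81) and MEPCE lower (-1.82). Among proteins that recruit P-TEFb, the bromodomain protein BRD2 (3.61) was higher and its relative BRD3 (-1.91) was lower, while the super elongation complex scaffold AFF1 was lower (-2.13) and AFF4 higher (1.19). Genes given here and below with a log2 fold change but no library values were picked after their values were known.

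Elongation factors kept close to the background of genes with an early signal. Of 23 genes of pausing and elongation, 7 were called higher and 13 lower (median log2 fold change -0.62). RTF1, which couples the polymerase to histone H2B ubiquitylation, had 145, 136 and 154 CPM on DMSO and 31.2, 28.9 and 29.2 CPM on toyocamycin (log2 fold change -2.28 ± 0.12, adjusted p = 8.90e-11). EAF1, a partner of the ELL elongation factors, had 23.3, 23.4 and 25.5 CPM on DMSO and 231, 201 and 209.7 CPM on toyocamycin (log2 fold change 3.15 ± 0.14, adjusted p = 1.15e-11), but part of its exons lie across a gene of the other strand and its count is uncertain. Of 13 other transcriptional kinases and cyclins, 6 were called higher and 3 lower. CDK12, the kinase of productive elongation, had 154, 151 and 161 CPM on DMSO and 142, 143 and 141 CPM on toyocamycin (log2 fold change -0.13 ± 0.11, adjusted p = 0.282), a difference that did not pass the test and turned to 0.19 with DESeq2's size factors and with its Wald test, by which the gene was called higher (adjusted p = 0.0557). CDK13, its closest relative, had 98.5, 91.05 and 83.3 CPM on DMSO and 289, 393 and 388 CPM on toyocamycin (log2 fold change 1.97 ± 0.20, adjusted p = 2.22e-07). CCNL1, a cyclin bound to splicing, had 16.1, 14.8 and 19.2 CPM on DMSO and 793, 749 and 721 CPM on toyocamycin (log2 fold change 5.50 ± 0.16, adjusted p = 5.51e-13), and CCNC, the cyclin of the Mediator kinase, had 16.6, 16.7 and 24.1 CPM on DMSO and 7.59, 7.03 and 5.78 CPM on toyocamycin (log2 fold change -1.50 ± 0.22, adjusted p = 1.13e-05). CDK13 and CCNL1 lay above the DMSO range in every library, and CCNC lay below it together with the Mediator kinases CDK8 (-1.24) and CDK19 (-1.06).

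Subunits of RNA polymerase II went both ways, in shares near those of all genes with an early signal. POLR2A, the largest subunit, whose tail CDK9 phosphorylates, encoded at chr17:7484366-7514616, had 462, 450.0 and 418 CPM on DMSO and 75.6, 78.9 and 93.9 CPM on toyocamycin (log2 fold change -2.42 ± 0.13, adjusted p = 1.00e-10), so its lowest DMSO library lay well above its highest toyocamycin library. Of 13 subunit genes, all with an early signal, 5 were called higher and 7 lower (median -0.29, but 0.04 with DESeq2's size factors). These are 38.5 and 53.8%, against 35.9 and 52.1% of all genes with an early signal. The subunits called higher were POLR2M (2.49), POLR2K (1.85), POLR2F (1.63), POLR2J (0.69) and POLR2E (0.67). Of 30 Mediator subunits, which bridge enhancers and the polymerase, 15 were called higher and 11 lower (median 0.27, but -0.33 with library size alone and -0.78 with the mitochondrial scale). Of the 29 with an early signal, 48.3% were called higher and 37.9% lower. MED26, the subunit that brings in elongation factors, had 7.38, 6.78 and 5.44 CPM on DMSO and 150.0, 152 and 139.8 CPM on toyocamycin (log2 fold change 4.50 ± 0.15, adjusted p = 1.22e-12), with an uncertain count because it shares exons with other annotated genes. MED12, a subunit of the Mediator kinase module, had 58.8, 55.1 and 55.7 CPM on DMSO and 3.84, 4.31 and 4.73 CPM on toyocamycin (log2 fold change -3.71 ± 0.15, adjusted p = 6.14e-12). Every toyocamycin library was higher for MED26 and lower for MED12. Integrator, the complex that cleaves nascent RNA at paused polymerases, had 4 genes called higher and 9 lower of 15 (median -0.67). INTS1, its largest subunit, had 665, 669.7 and 424 CPM on DMSO and 47.5, 62.1 and 64.1 CPM on toyocamycin (log2 fold change -3.34 ± 0.24, adjusted p = 2.90e-09). The 4 called higher were INTS12 (2.98), INTS14 (0.88, but -0.18 with scaling on mitochondrial genes), INTS2 (0.30) and INTS15 (0.25).

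Splicing factors leaned higher, with 44 of 72 called higher and 22 lower (median log2 fold change 0.94), except with the mitochondrial scale, under which 24 were higher and 28 lower (median -0.10). SF3B6, a small protein of the branch point complex, had 28.3, 27.8 and 34.6 CPM on DMSO and 695, 599 and 592 CPM on toyocamycin (log2 fold change 4.38 ± 0.19, adjusted p = 1.19e-11). EFTUD2, the GTPase of the U5 particle, had 179, 182 and 177 CPM on DMSO and 17.4, 15.6 and 16.995 CPM on toyocamycin (log2 fold change -3.43 ± 0.12, adjusted p = 2.05e-12). SRSF2, an SR protein that has been tied to pause release, had 66.01, 56.9 and 84.5 CPM on DMSO and 151, 116 and 132 CPM on toyocamycin (log2 fold change 0.94 ± 0.15, adjusted p = 2.86e-05), though the sign turned to -0.09 with scaling on mitochondrial genes. The difference spanned a wide range in both directions within 1 machine, from SF3B6 above to EFTUD2 below. RNA decay genes had no common direction, with 18 higher and 23 lower of 52. SMG8, of the nonsense-mediated decay kinase complex, was higher (2.97), and EDC4, a scaffold of the decapping complex, was lower (-2.97).

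**Figure D2:**
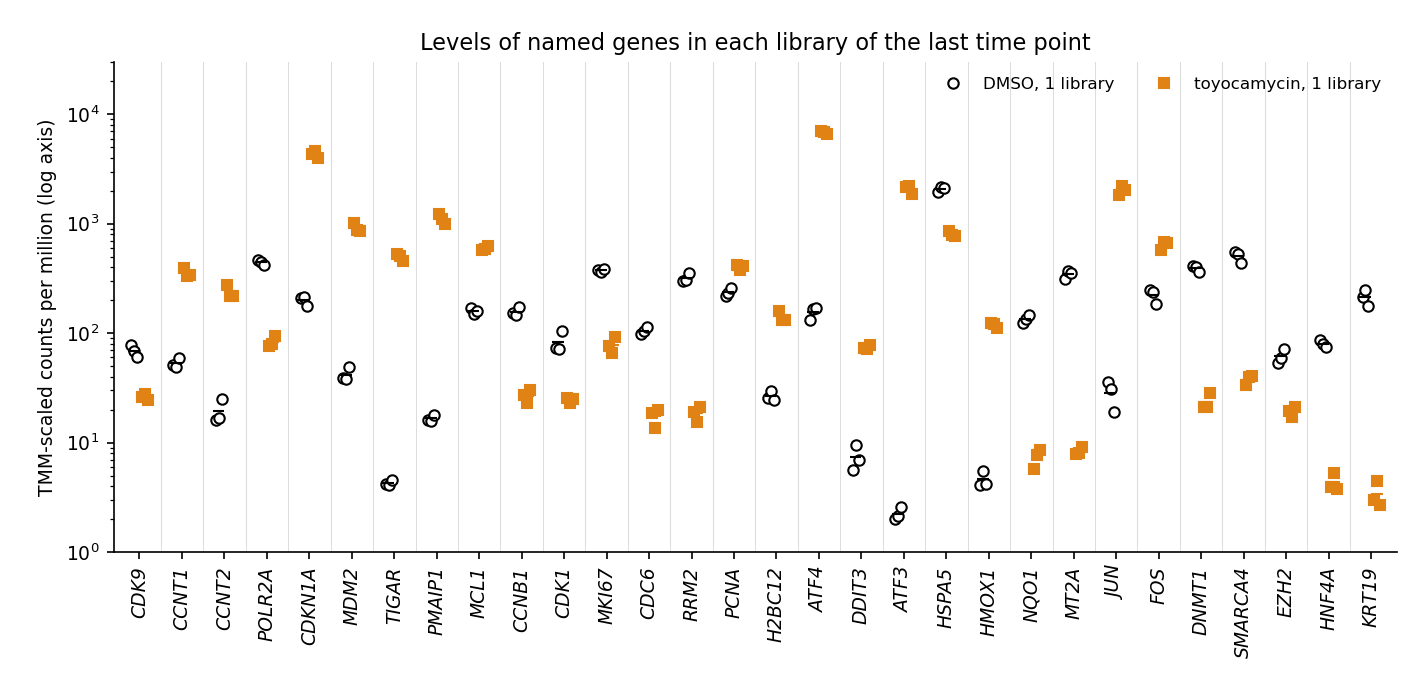
Normalised level in CPM on a log axis in each of the 3 DMSO (circles) and 3 toyocamycin (squares) libraries for 30 named genes of transcription, growth arrest, cell cycle, stress, early response, chromatin and identity, with bars at the means. CDK9, POLR2A, RRM2, NQO1, MT2A, DNMT1, HNF4A and KRT19 were lower on toyocamycin, and CCNT1, CDKN1A, TIGAR, PMAIP1, ATF3, HMOX1 and JUN were higher.

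Cell division genes fell together. Replication genes were called lower in 41 of 50 cases and higher in 5 (median log2 fold change -1.88), and genes of mitosis were called lower in 67 of 77 cases and higher in 5 (median -2.21). CDC6, a loader of the replicative helicase, had 97.8, 105 and 114 CPM on DMSO and 18.5, 13.6 and 19.9 CPM on toyocamycin (log2 fold change -2.60 ± 0.16, adjusted p = 3.86e-10). CDT1, which works beside CDC6 at origins, had 226, 239 and 156 CPM on DMSO and 23.4, 27.4 and 34.3 CPM on toyocamycin (log2 fold change -2.87 ± 0.24, adjusted p = 1.70e-08). CDC45, a part of the active helicase, had 47.2, 52.5 and 52.2 CPM on DMSO and 0.690, 1.78 and 2.19 CPM on toyocamycin (log2 fold change -5.000 ± 0.24, adjusted p = 3.02e-11). All 3 were lower in every toyocamycin library. PCNA, the sliding clamp and also a p53 target, was among the exceptions with 219, 231 and 257 CPM on DMSO and 420.3, 380.2 and 409 CPM on toyocamycin (log2 fold change 0.78 ± 0.13, adjusted p = 6.06e-05, but -0.28 with scaling on mitochondrial genes). The other 4 called higher were ORC5 (1.94), ORC4 (1.65), POLD4 (1.59) and POLE3 (1.22), of which ORC4 and ORC5 mark origins throughout the cycle. Of 25 genes of licensing and helicase, 20 were called lower (median -1.49), and of 25 genes of polymerases and maturation, 21 (median -2.13).

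Deoxynucleotide supply fell in 10 of 11 genes (median -2.48). RRM2, the cycle-dependent subunit of ribonucleotide reductase, had 301, 305 and 358 CPM on DMSO and 19.02, 15.6 and 21.02 CPM on toyocamycin (log2 fold change -4.11 ± 0.16, adjusted p = 3.33e-12). TK1, the thymidine kinase of S phase, had 381, 388 and 291 CPM on DMSO and 14.3, 18.4 and 19.4 CPM on toyocamycin (log2 fold change -4.34 ± 0.20, adjusted p = 2.50e-11). RRM2B, the p53-induced subunit that serves resting cells, was the member called higher, with 19.5, 16.8 and 25.6 CPM on DMSO and 212, 162 and 159 CPM on toyocamycin (log2 fold change 3.10 ± 0.20, adjusted p = 7.45e-10). Both subunits of S phase reductase fell, since RRM1 had 139, 142 and 167 CPM on DMSO and 26.3, 24.1 and 22.95 CPM on toyocamycin (log2 fold change -2.61 ± 0.14, adjusted p = 1.26e-10). Of 22 regulators of the step from G1 to S, 6 were called higher and 13 lower. CCNE1, the cyclin that starts S phase, had 49.4, 46.5 and 48.6 CPM on DMSO and 0.197, 0.562 and 0.613 CPM on toyocamycin (log2 fold change -6.68 ± 0.28, adjusted p = 8.07e-12), and E2F6, a repressor of the E2F family, had 38.01, 35.1 and 36.7 CPM on DMSO and 247, 193 and 202 CPM on toyocamycin (log2 fold change 2.55 ± 0.14, adjusted p = 1.21e-10). Cyclin E was nearly lost and E2F6 was higher in all 3 libraries. Genes of homologous recombination and checkpoints were called lower in 28 of 37 cases (median -1.59), among them BRCA1 (-1.73), BRCA2 (-1.59) and RAD54L (-4.66), while RAD51C (3.61), FANCF (3.50), RAD52 (3.39), ATRIP (1.59) and PALB2 (1.09) were called higher.

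In mitosis, CCNB1, the cyclin of mitotic entry, had 151, 147 and 172 CPM on DMSO and 27.1, 22.9 and 30.05 CPM on toyocamycin (log2 fold change -2.55 ± 0.15, adjusted p = 2.57e-10). CDK1, its kinase, had 73.1, 71.04 and 104 CPM on DMSO and 25.3, 22.8 and 24.8 CPM on toyocamycin (log2 fold change -1.77 ± 0.16, adjusted p = 6.44e-08), and MKI67, the proliferation antigen that coats chromosomes, had 381, 359 and 387 CPM on DMSO and 76.8, 66.3 and 92.1 CPM on toyocamycin (log2 fold change -2.26 ± 0.15, adjusted p = 8.06e-10). PLK1, the polo kinase, had 141, 129 and 114 CPM on DMSO and 46.3, 46.97 and 50.9 CPM on toyocamycin (log2 fold change -1.41 ± 0.14, adjusted p = 1.05e-07), and CDC25B, the phosphatase that starts entry, had 213, 218 and 203 CPM on DMSO and 1.18, 1.97 and 1.75 CPM on toyocamycin (log2 fold change -7.002 ± 0.18, adjusted p = 2.66e-13). CDC25B fell more than the other 4, and none of the 5 overlapped between arms. By role, 19 of 24 kinases, cyclins and exit genes and 48 of 53 kinetochore, spindle and condensin genes were called lower. FBXO5, an inhibitor of the anaphase promoting complex, went the other way with 17.9, 15.9 and 21.5 CPM on DMSO and 172, 153 and 153 CPM on toyocamycin (log2 fold change 3.11 ± 0.15, adjusted p = 3.86e-11). The other 4 called higher were MAD1L1 (6.50), which had at most 8 counts in any DMSO library, NUSAP1 (4.57), MIS12 (2.22) and MAD2L1 (1.12).

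Promoters of these lists carry known elements, and 3 are printed with their matches because they belong to named genes that fell. Each is the reference sequence of GRCh38 for the 120 bases before the annotated start, read 5′ to 3′ on the strand of the gene, and capitals mark matches to CCAAT, to the cell cycle homology elements TTTGAA and TTCGAA, or to the E2F element TTTCCCGC, on either strand. The PLK1 promoter lies on the plus strand at chr16:23678769-23678888, the CDC25B promoter on the plus strand at chr20:3796190-3796309 and the CDT1 promoter on the plus strand at chr16:88803669-88803788.
PLK1: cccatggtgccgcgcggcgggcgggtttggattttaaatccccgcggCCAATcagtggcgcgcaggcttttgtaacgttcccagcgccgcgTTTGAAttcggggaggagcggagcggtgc
CDC25B: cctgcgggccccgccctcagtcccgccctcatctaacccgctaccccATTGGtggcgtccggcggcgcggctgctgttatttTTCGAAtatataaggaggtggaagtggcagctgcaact
CDT1: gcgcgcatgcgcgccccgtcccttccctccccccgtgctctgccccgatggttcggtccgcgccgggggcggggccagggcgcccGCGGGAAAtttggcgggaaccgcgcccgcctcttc
In PLK1 the CCAAT match begins 73 and the TTTGAA match 29 bases before the start. In CDC25B the reverse complement ATTGG begins 73 and TTCGAA 38 bases before it. In CDT1 the reverse complement of the E2F element begins 35 bases before the start. Within 250 bases before and 50 after the start, on both strands, TTTGAA was found in 52 of 77 promoters of the mitosis genes (67.5%) and in 11.2% of all promoters, and CCAAT in 56 of 77 (72.7%) and in 35.97% of all. TTTCCCGC was found in 12 of 48 promoters of replication genes (25%) and in 2.24% of all promoters. Such a match is a description of the letters, not of a bound site.

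**Figure D3:**
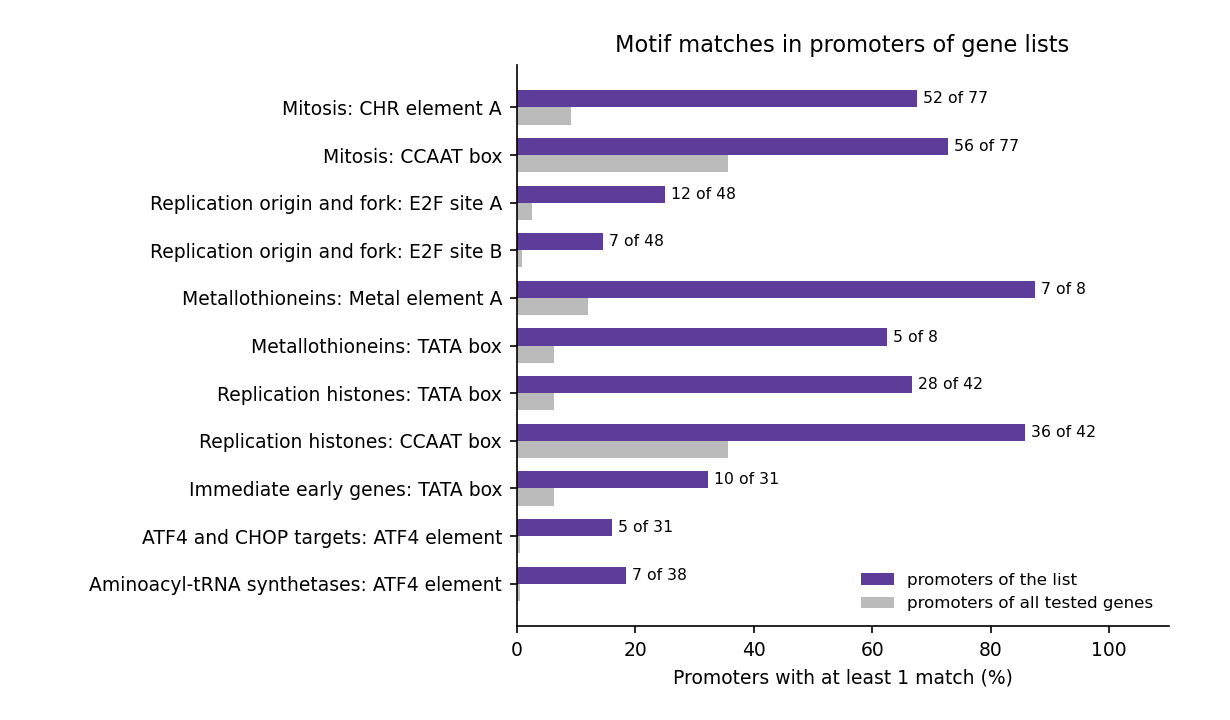
Share of promoters, in percent, with at least 1 match to each motif within 250 bases before and 50 after the start on either strand, for the members of a list and for all tested genes. TTTGAA was found in 67.5% of the promoters of mitosis genes and 9.26% of those of all tested genes, and TTTCCCGC in 25% of those of replication genes and 2.53% of those of all tested genes.

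Replication histones did not follow the other S phase genes. They lack a polyadenylated tail in cycling cells, so a library of polyadenylated RNA sees only an atypical part of them, and 42 of 63 passed the filter. Of the 19 with an early signal, 17 were called higher and none lower (median log2 fold change 2.41). H2BC12, a histone H2B gene, had 25.5, 29.6 and 24.4 CPM on DMSO and 158, 132 and 132 CPM on toyocamycin (log2 fold change 2.41 ± 0.14, adjusted p = 2.12e-10), higher in every library. Its promoter stands for the list, in which 28 of 42 tested members held TATAAA (9.27% of all promoters) and 36 of 42 held CCAAT. It lies on the minus strand at chr6:27146856-27146975, with capitals at CCAAT, 82 bases before the start, and at TATAAA, 30 bases before it.
H2BC12: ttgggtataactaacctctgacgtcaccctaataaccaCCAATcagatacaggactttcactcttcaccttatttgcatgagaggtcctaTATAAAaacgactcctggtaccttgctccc

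The targets of p53, the factor that answers DNA damage and ribosomal stress, moved most uniformly among the stress lists. All 37 genes of the list were tested, 33 were called higher and 4 lower, and the median log2 fold change was 3.49. CDKN1A, the p21 inhibitor of cyclin-dependent kinases, encoded at chr6:36676460-36687337, had 208, 214 and 178 CPM on DMSO and 4311, 4624 and 4029 CPM on toyocamycin (log2 fold change 4.43 ± 0.16, adjusted p = 2.48e-12). MDM2, the ligase that degrades p53, had 38.8, 37.97 and 48.7 CPM on DMSO and 1006, 879 and 858 CPM on toyocamycin (log2 fold change 4.45 ± 0.16, adjusted p = 2.05e-12). TIGAR, a phosphatase of sugar metabolism, had 4.20, 4.08 and 4.52 CPM on DMSO and 533, 503 and 452 CPM on toyocamycin (log2 fold change 6.86 ± 0.20, adjusted p = 4.82e-13), with part of its exons shared with another gene. No toyocamycin library came near the DMSO range for these genes. SFN, the 14-3-3 sigma protein of epithelial cells, was among those called lower, with 1716, 1799 and 1329 CPM on DMSO and 358, 528 and 465 CPM on toyocamycin (log2 fold change -1.84 ± 0.17, adjusted p = 5.23e-08), beside PLK3 (-1.79), CYFIP2 (-1.16) and FDXR (-0.48). Of 8 CDK inhibitor genes, CDKN1A, CDKN2B (2.85), CDKN1B (2.17), CDKN2D (1.14) and CDKN2C (0.50) were called higher and CDKN3 (-1.75), CDKN1C (-1.14) and CDKN2A (-0.52) lower.

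In the BCL2 family, which decides on cell death at mitochondria, members of either role went both ways. Of 14 tested, 6 were called higher and 5 lower. PMAIP1, a BH3 protein that neutralizes MCL1, had 15.98, 15.9 and 17.9 CPM on DMSO and 1229, 1112 and 996 CPM on toyocamycin (log2 fold change 6.06 ± 0.15, adjusted p = 2.66e-13). MCL1, the survival protein with a short-lived message, had 171, 150.3 and 158 CPM on DMSO and 581, 591 and 621 CPM on toyocamycin (log2 fold change 1.91 ± 0.12, adjusted p = 4.23e-10), with 5.27% of its exon length shared with another gene. BCL2, the survival protein of the outer membrane, had 26.4, 21.5 and 23.2 CPM on DMSO and 21.2, 27.8 and 24.7 CPM on toyocamycin (log2 fold change 0.05 ± 0.17, adjusted p = 0.775), with the 2 arms overlapping and a sign that turned under 4 alternatives, by 2 of which it was called lower (-0.55 with library size alone and -1.06 with the mitochondrial scale). BOK, an effector, had 49.9, 58.1 and 38.3 CPM on DMSO and 9.56, 12.7 and 14.5 CPM on toyocamycin (log2 fold change -1.99 ± 0.21, adjusted p = 3.09e-07). Thus MCL1 and its antagonist PMAIP1 were both higher, as were the death genes BBC3 (5.27), BAX (2.88), BCL2L11 (2.54) and BAK1 (0.48), while BIK (-2.56), BID (-1.35) and the survival genes BCL2L2 (-1.25) and BCL2L1 (-0.45) were lower. The call of BCL2L1 was lost with DESeq2's size factors, with DESeq2's Wald test and with a minimum of 10 counts.

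Genes of the ATF4 and CHOP branch of the stress response rose in 22 of 31 cases and fell in 8 (median log2 fold change 1.34). ATF4, the factor translated when initiation is blocked, had 132, 168 and 168 CPM on DMSO and 7007, 6952 and 6603 CPM on toyocamycin (log2 fold change 5.46 ± 0.18, adjusted p = 9.86e-13). ATF3, a repressor it induces, had 2.003, 2.15 and 2.57 CPM on DMSO and 2152, 2231 and 1868 CPM on toyocamycin (log2 fold change 9.85 ± 0.22, adjusted p = 1.15e-13). DDIT3, which encodes CHOP, had 5.57, 9.53 and 6.96 CPM on DMSO and 73.3, 70.97 and 78.3 CPM on toyocamycin (log2 fold change 3.33 ± 0.22, adjusted p = 1.32e-09). ASNS, the asparagine synthetase, had 1.07, 0.641 and 0.380 CPM on DMSO and 9.86, 12.2 and 11.2 CPM on toyocamycin (log2 fold change 3.998 ± 0.32, adjusted p = 9.47e-09). All 4 were higher in every library, though part of the exons of DDIT3 and of ASNS lie in other annotated genes and their counts are uncertain. PCK2, the mitochondrial carboxykinase, is on the same list and had 36.5, 45.2 and 32.6 CPM on DMSO and 2.17, 2.81 and 3.24 CPM on toyocamycin (log2 fold change -3.79 ± 0.20, adjusted p = 7.57e-11), lower throughout. The ATF3 promoter is shown because it holds both a TATA box and the composite element of C/EBP and ATF factors. It lies on the plus strand at chr1:212608641-212608760, with capitals at TATAAA, 32 bases before the start, and at TGATGCAA, 21 bases before it.
ATF3: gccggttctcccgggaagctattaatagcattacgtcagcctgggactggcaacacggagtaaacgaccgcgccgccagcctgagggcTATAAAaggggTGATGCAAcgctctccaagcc
TGATGCAA or its reverse complement occurred in the promoters of 5 of 31 genes of the list and in 0.667% of all promoters.

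Folding genes of the endoplasmic reticulum went the other way, with 7 called higher and 31 lower of 45 (median log2 fold change -1.34). HSPA5, the BiP chaperone, had 1959.8, 2152 and 2122 CPM on DMSO and 854, 786 and 776 CPM on toyocamycin (log2 fold change -1.37 ± 0.12, adjusted p = 4.97e-08). XBP1, the factor whose message IRE1 splices, had 101, 104 and 95.2 CPM on DMSO and 42.8, 35.999 and 39.6 CPM on toyocamycin (log2 fold change -1.34 ± 0.12, adjusted p = 3.84e-08). DNAJC10, a reductase of the lumen, had 73.1, 67.6 and 89.2 CPM on DMSO and 4.63, 2.53 and 4.20 CPM on toyocamycin (log2 fold change -4.34 ± 0.24, adjusted p = 1.32e-10). The 3 genes were lower in every toyocamycin library, but gene counts do not tell the spliced from the unspliced XBP1 message. Cytosolic chaperones were called higher in 7 and lower in 19 of 32 cases (median -0.37, near the -0.48 of genes with an early signal). HSPA8, the constitutive chaperone, had 1635, 1899 and 2156 CPM on DMSO and 113, 112 and 120.02 CPM on toyocamycin (log2 fold change -4.04 ± 0.16, adjusted p = 5.62e-12), and HSPA1B, an inducible relative with a near-identical copy in HSPA1A, had 124, 108 and 99.6 CPM on DMSO and 61.6, 56.1 and 45.3 CPM on toyocamycin (log2 fold change -1.03 ± 0.20, adjusted p = 2.05e-04).

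Among targets of NRF2, the factor of oxidative stress, 8 were called higher and 14 lower of 24 (median -1.03). HMOX1, heme oxygenase, had 4.10, 5.50 and 4.22 CPM on DMSO and 125, 122 and 112 CPM on toyocamycin (log2 fold change 4.70 ± 0.18, adjusted p = 3.33e-12). NQO1, a quinone reductase, had 125, 135 and 145 CPM on DMSO and 5.72, 7.78 and 8.59 CPM on toyocamycin (log2 fold change -4.19 ± 0.17, adjusted p = 5.72e-12). These classical targets moved in opposite directions with no overlap in either. Metallothioneins, small proteins that bind zinc and copper, fell. MT2A had 313, 371 and 356 CPM on DMSO and 7.79, 7.97 and 9.02 CPM on toyocamycin (log2 fold change -5.39 ± 0.17, adjusted p = 6.39e-13). MT1F had 16.9, 19.8 and 19.4 CPM on DMSO and 0.0986, 0.0937 and 0.175 CPM on toyocamycin, and its 1, 1 and 2 counts on toyocamycin are at the floor of detection, which gives a level at least 66.8-fold lower with 3 counts per library as the floor. Of the 8 tested genes of the list, 6 were called lower, and the 2 called higher were no metallothioneins but the zinc exporter SLC30A1 (5.08) and the metal-sensing factor MTF1 (2.01), so the genes whose product binds metal and the factor that drives them moved apart. The median log2 fold change of the list was -4.98, and -3.94 with genes at the floor set to their bound. The MT2A promoter is shown for its metal response elements, TGCACNC on either strand, which begin 88, 54 and 8 bases before the start, and for TATAAA at 29. It lies on the plus strand at chr16:56608464-56608583.
MT2A: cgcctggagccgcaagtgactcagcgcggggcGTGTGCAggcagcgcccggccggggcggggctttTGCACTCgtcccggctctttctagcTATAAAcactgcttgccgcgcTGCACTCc
TGCACNC was found in 7 of the 8 promoters of the list and in 12.5% of all promoters. Protein turnover had no single direction. Of 37 proteasome genes 16 were called higher and 17 lower, with PSMC3, an ATPase of the cap, at 178, 182 and 167 CPM on DMSO and 9.46, 11.8 and 11.3 CPM on toyocamycin (log2 fold change -4.01 ± 0.14, adjusted p = 1.81e-12), and of 67 genes of autophagy and lysosomes 24 were called higher and 33 lower.

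Nearly the whole set of ribosomal protein genes was higher. Of 86 genes of cytosolic ribosomal proteins, 83 were called higher and 1 lower, with a median log2 fold change of 1.52, and 1.51 without the 16 that share exons with other genes. With library size alone 73 were called higher and 5 lower (median 0.92), and with the mitochondrial scale 25 and 5 (median 0.47). The member called lower was RPL22L1, a paralog of RPL22, with 149.5, 160.2 and 209 CPM on DMSO and 120.3, 97.4 and 98.5 CPM on toyocamycin (log2 fold change -0.72 ± 0.15, adjusted p = 3.39e-04), and RPL7A and RPL12 did not pass the test. Genes that make ribosomes were less uniform. Of 94 genes of ribosomal RNA transcription and processing, 48 were called higher and 34 lower. Of the 92 with an early signal, 50% were called higher and 37.0% lower, against 35.9 and 52.1% of all such genes (median 0.26 against -0.48). With library size alone 35 of the 94 were called higher and 48 lower, and with the mitochondrial scale 15 and 46. NCL, nucleolin, had 1265, 1277 and 1445 CPM on DMSO and 737, 629 and 664 CPM on toyocamycin (log2 fold change -0.97 ± 0.14, adjusted p = 7.47e-06). FBL, the methylase of ribosomal RNA, had 421, 433 and 383 CPM on DMSO and 627, 535 and 515 CPM on toyocamycin (log2 fold change 0.44 ± 0.17, adjusted p = 0.0235, but -0.16 with library size alone and -0.65 with scaling on mitochondrial genes). UTP3, a processome protein, had 44.95, 42.7 and 44.9 CPM on DMSO and 1123, 972 and 906 CPM on toyocamycin (log2 fold change 4.50 ± 0.14, adjusted p = 6.49e-13), and PWP2, a member of the same particle, had 37.3, 40.3 and 35.8 CPM on DMSO and 1.38, 3.56 and 3.24 CPM on toyocamycin (log2 fold change -3.78 ± 0.24, adjusted p = 6.80e-10). UTP3 was thus higher and PWP2 lower in every library.

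Translation factors were called higher in 26 and lower in 21 of 53 cases, and aminoacyl-tRNA synthetases, which charge transfer RNAs, in 11 and 19 of 38. Among members with an early signal these were 47.1 and 41.2% of 51 translation factors and 27.0 and 51.4% of 37 synthetases. All genes of this kind had 35.9 and 52.1%. IARS2, the mitochondrial isoleucine enzyme, had 223, 239 and 278 CPM on DMSO and 4.93, 3.84 and 5.69 CPM on toyocamycin (log2 fold change -5.67 ± 0.19, adjusted p = 1.31e-12). AIMP1, a scaffold of the cytosolic synthetase complex, had 35.2, 39.2 and 47.6 CPM on DMSO and 264, 237 and 235 CPM on toyocamycin (log2 fold change 2.59 ± 0.15, adjusted p = 3.32e-10). Mitochondrial ribosomal proteins were called higher in 41 and lower in 32 of 82 cases, so they were less uniform than the cytosolic ones. Of the 80 with an early signal, 48.8% were called higher and 40% lower.

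Both genomes of the mitochondrion were measured. Of 13 protein genes of mitochondrial DNA, 11 were called higher and none lower (median log2 fold change 1.10, and 0.49 with 7 called higher when library size alone was used), and the mitochondrial share of all counts was 0.917 to 1.49% on DMSO and 1.46 to 1.85% on toyocamycin. MT-ND1, a core subunit of complex I, had 463, 524 and 684 CPM on DMSO and 2295, 3097 and 2325 CPM on toyocamycin (log2 fold change 2.21 ± 0.34, adjusted p = 1.77e-05), higher throughout. The nuclear subunits of complex I were called higher in 11 and lower in 22 of 38 cases, and those of complexes II to V in 15 and 18 of 43. UQCRC1, a core protein of complex III, had 483, 481 and 456 CPM on DMSO and 15.7, 13.2 and 12.8 CPM on toyocamycin (log2 fold change -5.09 ± 0.15, adjusted p = 5.72e-13), and NDUFA11, an accessory subunit of complex I, had 1.42, 1.83 and 0.591 CPM on DMSO and 63.96, 87.4 and 78.2 CPM on toyocamycin (log2 fold change 5.91 ± 0.37, adjusted p = 5.81e-10). UQCRC1 was thus lower and NDUFA11 higher in every library. Among carriers of the inner membrane, 19 were called higher and 22 lower of 46 (12 and 22 of the 38 with an early signal), and SLC25A5, the ADP and ATP exchanger of growing cells, had 353, 405 and 430.3 CPM on DMSO and 20.1, 30.5 and 23.7 CPM on toyocamycin (log2 fold change -3.999 ± 0.17, adjusted p = 8.08e-12).

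Glycolysis had the lowest median of the metabolic lists. Of 23 enzymes and transporters, 20 were called lower and 2 higher, with a median log2 fold change of -2.99. ALDOC, an aldolase, had 106, 119.995 and 96.4 CPM on DMSO and 2.46, 2.81 and 2.89 CPM on toyocamycin (log2 fold change -5.30 ± 0.18, adjusted p = 1.33e-12). PKM, the pyruvate kinase, fell by 3.01 on the log2 scale and SLC2A1, the glucose transporter, by 1.49. The exceptions called higher were the lactate dehydrogenase LDHB (3.06) and the main aldolase ALDOA (3.05), both with uncertain counts because they share exons with other genes (33.4% and 42.8% of their exon length), while SLC16A1, the lactate exporter, did not pass the test. Hypoxia response genes, which overlap with glycolysis, were called higher in 10 and lower in 9 of 20 cases, and in 7 and 9 of the 17 with an early signal (median -1.40). BHLHE40, a repressor of the clock that hypoxia induces, had 59.8, 77.1 and 67.2 CPM on DMSO and 3579.8, 4223 and 3598 CPM on toyocamycin (log2 fold change 5.80 ± 0.19, adjusted p = 9.78e-13), and NDRG1, a marker of hypoxia, had 400.3, 387 and 319 CPM on DMSO and 3.06, 4.12 and 5.43 CPM on toyocamycin (log2 fold change -6.44 ± 0.21, adjusted p = 1.03e-12). These 2 targets moved far apart in opposite directions.

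Cholesterol synthesis was called lower in 19 of 26 genes and higher in 5 (median -1.03). MSMO1, a methyl sterol oxidase, had 21.2, 20.5 and 26.8 CPM on DMSO and 136, 117 and 108 CPM on toyocamycin (log2 fold change 2.39 ± 0.15, adjusted p = 5.94e-10), above the DMSO range in every library and against the direction of the list. Among the others called higher were HSD17B7 (2.74), IDI1 (2.04) and INSIG1 (1.85). Fatty acid synthesis was called lower in 10 of 12 genes (median -1.99), among them the elongase ELOVL1 (-3.94), and the desaturase FADS1 (1.40) was higher.

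Genes that handle adenosine and its analogs were called lower in 9 of 12 cases and higher in 3 (median log2 fold change -2.48). ADK, adenosine kinase, the enzyme that phosphorylates such analogs, had 60.7, 64.3 and 73.4 CPM on DMSO and 24.8, 24.5 and 27.4 CPM on toyocamycin (log2 fold change -1.37 ± 0.14, adjusted p = 1.76e-07). SLC29A4, an equilibrative transporter, had 39.4, 42.5 and 26.7 CPM on DMSO and 2.27, 1.78 and 1.93 CPM on toyocamycin (log2 fold change -4.18 ± 0.25, adjusted p = 3.07e-10). NT5E, the surface enzyme that makes adenosine from AMP, had 9.14, 11.2 and 14.3 CPM on DMSO and 84.6, 68.4 and 83.3 CPM on toyocamycin (log2 fold change 2.77 ± 0.18, adjusted p = 1.10e-09). The kinase and the transporter were lower and NT5E was higher in every library. ADA2, a secreted deaminase, and PNP, a phosphorylase of purine nucleosides (0.48), were the others called higher, but ADA2 had at most 2 counts in any DMSO library, which gives no fold change. Enzymes of purine and pyrimidine synthesis were called higher in 9 and lower in 15 of 24 cases (median -1.13). PRPS1, which makes the activated ribose of nucleotides, had 35.6, 36.5 and 40.8 CPM on DMSO and 104, 95.7 and 94.3 CPM on toyocamycin (log2 fold change 1.38 ± 0.14, adjusted p = 1.46e-07), and GMPS, the last enzyme of GMP synthesis, had 113, 109 and 127 CPM on DMSO and 8.48, 5.72 and 6.75 CPM on toyocamycin (log2 fold change -4.06 ± 0.17, adjusted p = 8.60e-12).

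Immediate early genes, which growth factors and stress induce without new protein synthesis, were higher almost without exception. Of 33 tested, 31 were called higher and 1 lower, with a median log2 fold change of 3.42. JUN, a subunit of the AP-1 factor, had 35.9, 31.1 and 19.1 CPM on DMSO and 1816, 2208 and 2028 CPM on toyocamycin (log2 fold change 6.14 ± 0.31, adjusted p = 4.55e-11). FOS, its partner, had 248, 239.5 and 184 CPM on DMSO and 578, 679.8 and 665 CPM on toyocamycin (log2 fold change 1.52 ± 0.18, adjusted p = 1.21e-06), a call that scaling on mitochondrial genes removed. KLF2, a Krüppel-like factor, was the member called lower, with 26.1, 29.1 and 16.8 CPM on DMSO and 1.97, 6.94 and 4.64 CPM on toyocamycin (log2 fold change -2.40 ± 0.41, adjusted p = 5.70e-05), and IER5 did not pass the test (log2 fold change 0.34, adjusted p = 0.18). JUN rose far more than FOS, and neither overlapped between arms. TATAAA was found in the promoters of 10 of 31 members. Ligands and feedback genes of the EGFR and MAPK path, which drives this response, were called higher in 18 and lower in 9 of 28 cases (median 1.73). SPRY2, a feedback inhibitor, had 31.03, 26.5 and 26.6 CPM on DMSO and 1086, 1212 and 1018 CPM on toyocamycin (log2 fold change 5.30 ± 0.16, adjusted p = 6.27e-13), and ERBB2, a receptor, had 368, 361 and 289 CPM on DMSO and 22.6, 27.3 and 27.8 CPM on toyocamycin (log2 fold change -3.71 ± 0.15, adjusted p = 5.43e-12).

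Other signalling lists divided. Genes of NF-kappaB and chemokines were called higher in 12 and lower in 11 of 27 cases, and in 7 and 11 of the 20 with an early signal (median -0.52), with BIRC3, an inhibitor of apoptosis, at 1.47, 2.38 and 3.42 CPM on DMSO and 161, 134 and 133 CPM on toyocamycin (log2 fold change 5.86 ± 0.29, adjusted p = 4.91e-11) and NFKB2, the precursor of p52, at 133, 133 and 108 CPM on DMSO and 4.73, 4.22 and 7.01 CPM on toyocamycin (log2 fold change -4.54 ± 0.21, adjusted p = 1.69e-11). Of 34 interferon-stimulated genes with an early signal, 10 were called higher and 20 lower (median -1.18). UBE2L6, which attaches ISG15, had 45.4, 53.4 and 45.5 CPM on DMSO and 1.08, 2.72 and 2.54 CPM on toyocamycin (log2 fold change -4.49 ± 0.23, adjusted p = 5.60e-11). Wnt targets were called higher in 10 and lower in 9 of 19 cases. AXIN2, the feedback gene of the path, had 403, 366 and 369 CPM on DMSO and 855, 769 and 842 CPM on toyocamycin (log2 fold change 1.12 ± 0.12, adjusted p = 2.98e-07, not called with scaling on mitochondrial genes), and its exons are partly shared with another gene. EPHB2, a receptor of crypt cells, had 105, 98.5 and 91.9 CPM on DMSO and 3.75, 2.62 and 4.47 CPM on toyocamycin (log2 fold change -4.76 ± 0.18, adjusted p = 3.01e-12). AXIN2 was slightly higher and EPHB2 lower throughout.

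In the MYC and MAX network, MNT, a repressor that competes for MAX, had 28.05, 25.1 and 23.1 CPM on DMSO and 619, 702 and 608 CPM on toyocamycin (log2 fold change 4.66 ± 0.15, adjusted p = 7.57e-13). MLXIPL, the glucose-sensing factor ChREBP, had 31.3, 30.5 and 23.9 CPM on DMSO and 0.690, 1.12 and 0.175 CPM on toyocamycin (log2 fold change -5.44 ± 0.39, adjusted p = 3.24e-09). MNT was thus higher, as were the antagonist MXD1 (3.41) and MAX itself (1.60), and MLXIPL was nearly lost. Of the 13 genes of the network, all with an early signal, 5 were called higher and 7 lower (median log2 fold change -0.60). These are 38.5 and 53.8%, near the 35.9 and 52.1% of all genes of this kind. Circadian factors were called higher in 14 of 19 cases and lower in 4 (median log2 fold change 1.43), and in 11 and 4 of the 16 with an early signal (median 0.88). BHLHE41, a clock repressor, had 0.342, 0.641 and 0.422 CPM on DMSO and 906, 1258 and 1108 CPM on toyocamycin (log2 fold change 11.16 ± 0.29, adjusted p = 2.66e-13), from at most 14 counts in any DMSO library. BMAL2, a partner of CLOCK, had 53.3, 47.2 and 61.6 CPM on DMSO and 5.32, 3.56 and 3.85 CPM on toyocamycin (log2 fold change -3.67 ± 0.21, adjusted p = 1.86e-10), and the others called lower were NPAS2 (-2.35), CLOCK (-2.08) and CRY2 (-0.69).

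Several groups of chromatin regulators had medians under the -0.48 of genes with an early signal. SWI/SNF, the remodeler of nucleosomes, had 8 genes called higher and 17 lower of 26 (median log2 fold change -0.91). SMARCC2, a core subunit, had 174, 178 and 169 CPM on DMSO and 7.59, 10.1 and 8.50 CPM on toyocamycin (log2 fold change -4.31 ± 0.15, adjusted p = 1.65e-12). SMARCA4, the BRG1 ATPase, fell by 3.74 on the log2 scale, whereas SMARCA2, its alternative, had 76.6, 75.7 and 78.5 CPM on DMSO and 58.8, 55.4 and 57.1 CPM on toyocamycin (log2 fold change -0.43 ± 0.11, adjusted p = 0.0026), a call that DESeq2's size factors, DESeq2's Wald test and a minimum of 10 counts removed. ARID1A, a DNA-binding subunit often mutated in cancer, had 54.2, 61.3 and 53.1 CPM on DMSO and 79.8, 107 and 123 CPM on toyocamycin (log2 fold change 0.88 ± 0.17, adjusted p = 1.68e-04, but -0.20 with scaling on mitochondrial genes). Writers and erasers of histone methylation were called higher in 14 and lower in 26 of 45 cases (median -1.04). EZH2, the Polycomb methylase, had 53.8, 59.2 and 72.4 CPM on DMSO and 19.3, 17.2 and 21.02 CPM on toyocamycin (log2 fold change -1.69 ± 0.15, adjusted p = 2.91e-08). EHMT2, a methylase of histone H3 lysine 9, had 175, 179 and 134 CPM on DMSO and 11.9, 13.3 and 12.1 CPM on toyocamycin (log2 fold change -3.71 ± 0.16, adjusted p = 1.11e-11), and KDM6B, a demethylase that opposes EZH2, had 45.2, 40.2 and 31.6 CPM on DMSO and 2089.8, 2599 and 2437 CPM on toyocamycin (log2 fold change 5.93 ± 0.22, adjusted p = 3.01e-12). Both methylases were lower and the demethylase higher in every library. Acetyltransferases and deacetylases were called higher in 9 and lower in 16 of 28 cases, with SIRT2 at -4.03 and SIRT1 at 2.94, and CHD and ISWI remodelers in 5 and 6 of 15, with CHD2 at 3.84 and HELLS at -2.31.

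The active DNA methyltransferases, the enzymes that keep promoters such as that of the reporter methylated, were all lower. DNMT1, which copies methylation after replication, encoded at chr19:10133342-10231286, had 407, 404 and 364 CPM on DMSO and 20.99, 21.1 and 28.3 CPM on toyocamycin (log2 fold change -4.06 ± 0.16, adjusted p = 3.46e-12). DNMT3B, which sets new methylation, had 14.1, 13.5 and 13.9 CPM on DMSO and 0, 0 and 0.438 CPM on toyocamycin (log2 fold change -6.42 ± 0.46, adjusted p = 2.49e-09). DNMT3A, its relative, had 66.99, 66.9 and 62.04 CPM on DMSO and 12.6, 17.2 and 16.5 CPM on toyocamycin (log2 fold change -2.08 ± 0.15, adjusted p = 2.30e-09). UHRF1, the guide of DNMT1, had 314, 294 and 251 CPM on DMSO and 17.1, 19.4 and 27.4 CPM on toyocamycin (log2 fold change -3.75 ± 0.24, adjusted p = 6.61e-10). DNMT3B had no count in 2 of the toyocamycin libraries and 5 in the third, and the other 3 genes kept clear levels. TET1, an eraser, had 0.782, 1.19 and 1.98 CPM on DMSO and 2.66, 0.937 and 2.72 CPM on toyocamycin (log2 fold change 0.66 ± 0.44, adjusted p = 0.168), with arms that overlapped and a sign that turned with scaling on mitochondrial genes (-0.26). The erasers TDG (2.59), TET2 (1.22) and TET3 (1.65) were called higher, and over the list of 16 genes 8 were called higher and 6 lower. With library size alone 7 of the list were called higher and 7 lower (median 0.006), and with the mitochondrial scale 1 and 7 (median -0.42). These are messages, and methylation itself was not measured in these libraries. In separate assays of YB5 cells, the study found methylation of the cytomegalovirus promoter and of LINE-1 unchanged after toyocamycin.

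Genes of colon identity went both ways. HNF4A, a factor of enterocytes, had 85.8, 80.1 and 74.2 CPM on DMSO and 3.94, 5.25 and 3.77 CPM on toyocamycin (log2 fold change -4.21 ± 0.17, adjusted p = 6.01e-12), and KLF5, a factor of crypt cells, had 215, 206 and 205 CPM on DMSO and 2581, 2746 and 2762 CPM on toyocamycin (log2 fold change 3.69 ± 0.14, adjusted p = 2.45e-12). These intestinal factors moved apart. Of 19 intestinal genes with an early signal, 6 were called higher and 8 lower (median log2 fold change -0.18). Of 25 keratins and claudins of this kind, 6 were called higher and 17 lower (median -2.29). KRT16, a keratin of stressed epithelia, had 465, 610.1 and 490.2 CPM on DMSO and 6.41, 6.75 and 5.43 CPM on toyocamycin (log2 fold change -6.40 ± 0.21, adjusted p = 1.03e-12). CLDN6, a claudin of embryonic epithelia, had 0.537, 0.0916 and 0.169 CPM on DMSO and 263, 313 and 315 CPM on toyocamycin (log2 fold change 10.13 ± 0.35, adjusted p = 1.51e-12), from 11, 2 and 4 counts on DMSO. CDH1, E-cadherin, which holds epithelial cells together, had 359.6, 378 and 391 CPM on DMSO and 35.5, 31.2 and 35.1 CPM on toyocamycin (log2 fold change -3.47 ± 0.13, adjusted p = 3.37e-12). KRT16 and CDH1 were thus lower, and CLDN6 was higher, in all toyocamycin libraries.

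Developmental and zinc finger families, some of whose members had few or no counts on DMSO, were read only through members with an early signal. Of 28 HOX genes of this kind, which pattern the body axis, 23 were called higher and 2 lower (median log2 fold change 2.27). HOXA3 had 13.5, 13.1 and 10.8 CPM on DMSO and 255, 350.3 and 353 CPM on toyocamycin (log2 fold change 4.68 ± 0.19, adjusted p = 6.06e-12), and the members called lower were the posterior HOXA13 (-1.49) and HOXB13 (-0.68), the latter a factor of the distal gut. Of 56 genes of other developmental factor families, 32 were called higher and 16 lower (median 0.97). FOXA1, a pioneer factor of endoderm, had 6.50, 6.09 and 4.68 CPM on DMSO and 467, 693 and 635 CPM on toyocamycin (log2 fold change 6.70 ± 0.22, adjusted p = 9.02e-13), and SOX13 had 156, 142 and 135 CPM on DMSO and 12.8, 16.03 and 18.9 CPM on toyocamycin (log2 fold change -3.18 ± 0.18, adjusted p = 1.57e-10). FOXA1 and HOXA3 were higher in every library and SOX13 lower. Of 10 tumor suppressors often methylated in colon cancer that had an early signal, 5 were called higher and 4 lower (median 1.08), the latter CDH1, NDRG4 (-2.33), SEPTIN9 (-2.24) and CDKN2A. Zinc finger genes, a large family with many repressors, were called higher in 231 and lower in 57 of 328 cases (median 1.45). ZNF596 had 0.586, 0.595 and 0.844 CPM on DMSO and 275, 359.9 and 298 CPM on toyocamycin (log2 fold change 8.82 ± 0.23, adjusted p = 2.66e-13) and ZNF704 20.2, 18.2 and 19.3 CPM on DMSO and 0.986, 0.656 and 0.613 CPM on toyocamycin (log2 fold change -4.68 ± 0.23, adjusted p = 3.33e-11), which shows the span of the family. Clustered protocadherins had an early signal in 7 members, all called higher, but most members share exons with each other.

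Gene structure moved with the fold change. Among genes with an early signal, the median log2 fold change was 1.80 for 225 genes with 1 exon, 0.49 for 2841 with 2 to 5 exons, -0.24 for 3455 with 6 to 10, -0.94 for 3393 with 11 to 20 and -1.60 for 1596 with more than 20. The share called higher went from 73.8% with 1 exon to 15.1% with more than 20, and the share called lower from 15.1 to 75.1%. In the quartile of genes with the highest level the medians were 1.12, 0.18, -0.62, -1.38 and -2.08 in the same order, and in the quartile below it 1.28, 0.25, -0.39, -1.08 and -1.61. The order of the classes was therefore alike at both levels. Gene span, the length from the first to the last exon, was less closely tied. Genes of 2 to 5 exons had medians of 0.35, 0.59 and 0.37 when they spanned under 10, 10 to 50 and over 50 kb, and genes of 11 to 20 exons had -1.14, -0.92 and -0.94. Across 14462 tested genes, which are not independent replicates, Spearman's rho with the fold change was -0.30 for exon number, -0.14 for span and -0.09 for spliced length. These genes were not limited to those with an early signal and include genes with few counts on DMSO. Exon number also differs between the lists, with a median of 1 for replication histones, 3 for immediate early genes, 5 for ribosomal protein and zinc finger genes, 11 for glycolysis and 14 for mitosis. Over 57 lists the median exon number and the median fold change had a rho of -0.47, and its part in the medians above was not tested. By quartile of CpG content of the promoter, from low to high, genes with an early signal had medians of -0.37, -0.53, -0.58 and -0.41. Over all tested genes with a promoter the medians were 2.17, -0.11, -0.28 and -0.17. The lowest of these quartiles had a median level of 0.567 CPM on DMSO. Within the highest quartile of level the order was steady, with -1.56, -1.11, -1.08 and -0.70, and in the quartile below it the medians were -1.13, -0.78, -0.64 and -0.52. In that highest quartile of level, genes with TATAAA in the promoter had a median of -0.48 and those without it -1.01, and genes with the SP1 box GGGCGG had -1.10 and those without it -0.45. TATAAA was found in 6.37% and GGGCGG in 70.9% of the promoters of tested genes.

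**Figure D4:**
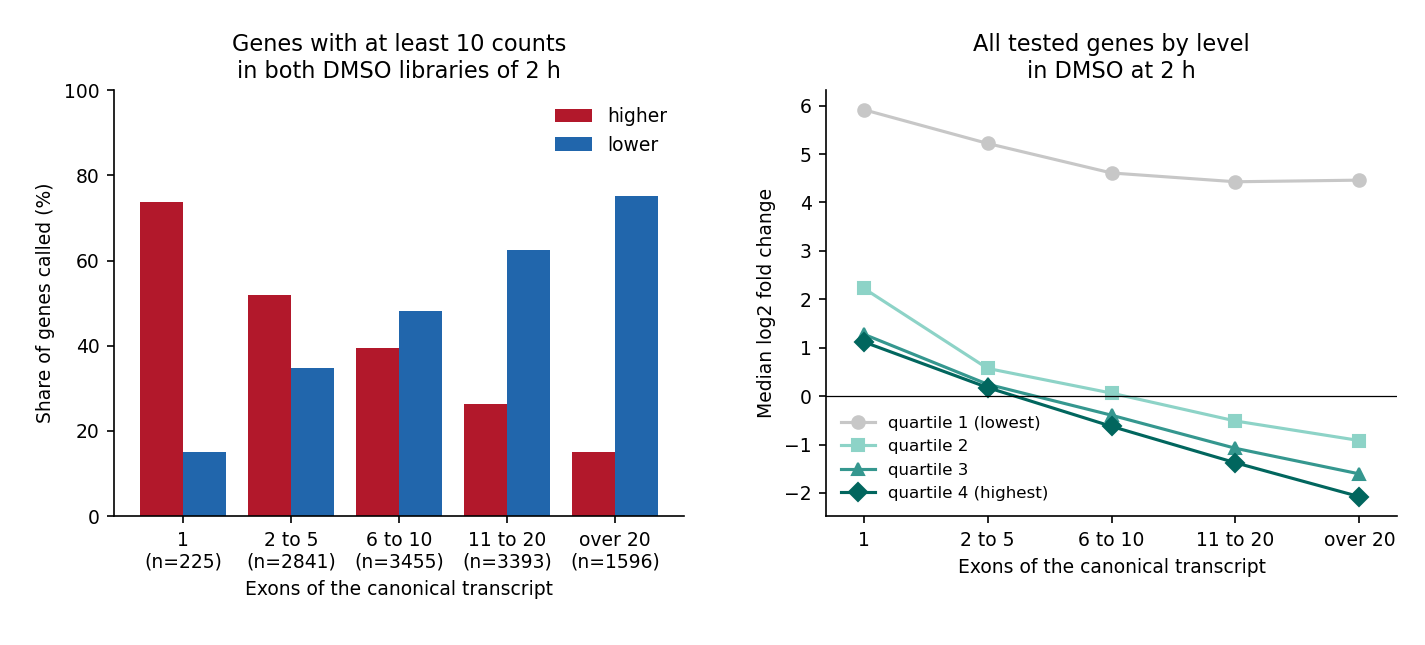
Left, share of genes called higher and lower on toyocamycin, in percent, by number of exons, among genes with at least 10 counts in both DMSO libraries of 2 h. Right, median log2 fold change by number of exons within quartiles of the level. The share called higher falls from 73.8 to 15.1% as exon number rises, and the medians fall in the 2 upper quartiles of level, from 1.12 to -2.08 in the highest.

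The last time point differed from the start of the course. After 2 h, with 2 libraries per arm, 1220 genes were called lower and 75 higher. Of the 1220, 739 were called higher at the last time point and 354 lower. The difference between the effects at the last time point and at 2 h was tested in the same fit, and 76.1% of genes passed, 5506 with a higher and 5523 with a lower effect at the end. Immediate early genes had median log2 fold changes of -0.56, 2.76, 3.10 and 3.42 in order of time from 2 h to the last time point, and p53 targets had -0.33, 2.14, 3.50 and 3.49. Ribosomal protein genes had 0.20, 2.15, 2.07 and 1.52, and mitochondrially encoded genes -0.10, 2.22, 1.75 and 1.10. These lists were thus near or under the line at 2 h and above it at 24 h already. Glycolysis followed another course, with 0.14, 0.54, -1.22 and -2.99, and folding genes of the endoplasmic reticulum had -0.02, 0.40, -0.50 and -1.34, so that these fell late. Since each arm has 1 library at 24 and 48 h, the values of those times are given without a test.

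**Figure D5:**
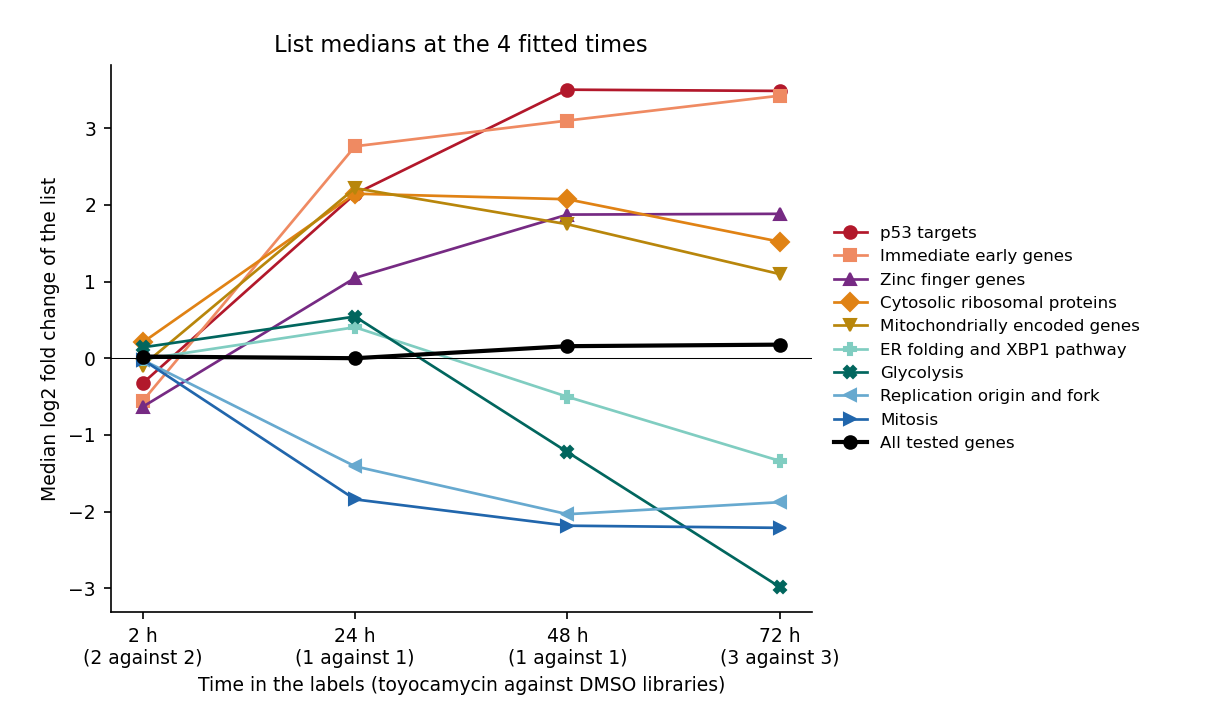
Median log2 fold change of toyocamycin against DMSO for the members of each list at 2, 24, 48 and 72 h by the labels, with 2, 1, 1 and 3 libraries per arm. Immediate early genes start at -0.56 and end at 3.42, and glycolysis starts at 0.14 and ends at -2.99.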

How the data were processed

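RNA-seq libraries of YB5 cells were used, 3 of toyocamycin and 3 of DMSO at the last time point, with 8 earlier libraries in the same fit to share the estimate of spread. The authors aligned reads to GRCh38 with STAR 2.7.5a, counted reads per gene with its GeneCounts option and the annotation of Ensembl release 100, and deposited these counts unnormalized for 19141 genes. This option leaves out reads that overlap more than 1 gene, and the strand setting is not given in the sources used here, so genes that share exons were marked as uncertain. The authors also deposited fold changes and p-values of their own comparisons, which were not used. In the count table, 1 column matched no sample and was not used.

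Genes were filtered with filterByExpr, scaled with TMM and tested with edgeR 4.0.16 (quasi-likelihood test in the older form of the authors' version, 14491 genes, Benjamini-Hochberg adjusted p under 0.1) in R 4.3.3. Python 3.11.15 with pandas 2.3.3 and numpy 2.4.6 made the summaries. Depth was 13483232 to 20756242 reads per library. Genes that had no more than 3 counts in each library of 1 arm are described as at the floor, a limit that covers counting error only. The form of the test was checked on simulated counts of 11936 genes, with 100 genes changed by 1 and 100 by 2 on the log2 scale. It recovered 79 and 77 of these, with 14 false calls. With so few changed genes, the simulation cannot show how the test or the scaling behaves where most genes are called. Symbols were matched for 19080 genes, and positions, exons and promoters came from GENCODE 44 of GRCh38, with the promoters of chromosome 8 left out. Of the tested genes, 13967 (96.4%) had a promoter.

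The members and the 67 lists were chosen with earlier results of these data known. Named with library values are marked key genes of each list and, per list, the called gene with the largest rise and the largest fall among those whose average log2 CPM was 4 or more and whose arms did not overlap. Alternatives were DESeq2's size factors and Wald test (DESeq2 1.42.0), library size alone, scaling on mitochondrially encoded genes, edgeR's newer form, no filter, at least 10 counts in every library, the 6 libraries alone, all 17 with and without batch, replicate number as a block, a stricter threshold of 0.05, a test against 2-fold, and fits that left out single libraries. The genes with at least 10 counts in DMSO libraries at 2 h were singled out after the data had been seen. Some genes that this rule names are not reported here.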

Additional observations from a re-analysis of the deposited data

Results flagged for a closer look

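The effect at the last time point differed from that at 2 h by the test of the difference itself for most genes, and the following counts are of genes called in opposite directions at the 2 times. Over all tested genes, 739 of the 1220 called lower at 2 h were called higher at the last time point, and 2 of the 75 called higher at 2 h were called lower. Among zinc finger genes 107 of the 134 called lower at 2 h were called higher at the end, among p53 targets 10 of 11, and among immediate early genes 13 of 13. The median log2 fold change of zinc finger genes at 2 h was -0.63. Batch, depth and the number of libraries also differ between the times, and their part in these counts was not tested.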

How the results depend on the processing

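Counts of genes called higher and lower stayed within 1.5 times of 6804 and 6065 under all alternatives run but 2, which gave 4204 higher with scaling on mitochondrially encoded genes and 4270 with at least 10 counts in every library. With DESeq2's size factors the counts were 7447 and 5379, and with its Wald test 7197 and 5280. Leaving out 1 library gave 6476 to 6763 higher and 5914 to 5963 lower, with 304 to 344 of 12869 calls lost and a change of sign in 2 genes, without toyocamycin replicate 2. These losses count only genes that were tested again. A further 123 to 171 called genes left the test without a toyocamycin library, and 1 to 2 without a DMSO library. The replicate block gave 5912 and 5754, but the numbers do not pair the samples, since deviations of same-numbered samples correlated at -0.13, 0.06 and -0.12. With at least 10 counts in every library, list medians relative to all genes turned for RNA polymerase I and III subunits (0.13), G1/S regulators (0.0887), cytosolic chaperones (0.0821), complex I (0.0692), the MYC and MAX network (0.58) and cancer-testis genes (-0.85). Among members with at least 10 counts at 2 h they turned for polymerase I and III (0.14), chaperones (0.16), complex I (0.15) and cancer-testis genes (-0.76), and without a filter for keratins and claudins (0.31). Only lists whose main median lay clearly off that of all genes were counted as turned, and lists closer to it changed sign too. Over all tested members and over those with an early signal, the medians of all genes were 0.18 and -0.48. Those of the proteasome were 0.04 and 0.04, and those of the hypoxia response 0.25 and -1.40. Log2 fold changes turned with the scale of mitochondrial genes for INTS14 (-0.18), SRSF2 (-0.0891), ARID1A (-0.20), TET1 (-0.26), PCNA (-0.28), CDX2 (-0.52), BCL2 (-1.06) and FBL (-0.65), and with library size alone for BCL2 (-0.55) and FBL (-0.16). CDK12 and NPM1 turned with DESeq2's size factors (0.19 and 0.17), its Wald test (0.19 and 0.17) and at least 10 counts (0.15 and 0.13). BCL2, which was not called with TMM, was called lower with library size alone and with the mitochondrial scale and ranged from -0.0419 to 0.15 on leaving out a library. Among genes with at least 10 counts at 2 h, the medians relative to all such genes were 2.28, 0.97, 0.24, -0.46 and -1.11 from 1 exon to over 20, moved from those of all tested genes but in the same order. Named genes kept direction and call in 2656 of their comparisons with an alternative, lost a call in 21 and gained one in 12, and list medians relative to all genes moved by more than the spread between libraries in 511 without a clear turn. The cause of these turns was not tested. Fitted values of genes near 0 counts in 1 arm are limited by depth.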
